A study of Bos taurus with 12 samples.

Results

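HOX genes encode homeodomain transcription factors that set the identity of body segments along the head-to-tail axis. They lie in clusters named HOXA, HOXB, HOXC and HOXD, and a paralog number gives the place of each gene within its cluster. Low numbers are as a rule used in anterior tissues and high numbers in posterior ones. In the female reproductive tract, HOXA9 is known from the oviduct, HOXA10 from the uterus, HOXA11 from the uterus and cervix and HOXA13 from the cervix and upper vagina. HOXA10 and HOXA11 remain expressed in the adult endometrium, where they respond to ovarian steroids and are required for implantation in the mouse.

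The members were taken by name: probes of the array that are not controls and whose gene symbol is HOXA, HOXB, HOXC or HOXD followed by a number. This gave the 35 HOX genes described here, with 37 transcripts and 84 probes, of 26323 transcripts and 61333 probes kept on the array. HOXA had 10 genes, HOXB 8, HOXC 9 and HOXD 8. HOXA4 and HOXA10 had 2 transcripts each, and the one with the higher mean over the arrays stands for the gene. HOXD11 was named by the description of its probes. HOXB6, HOXB8 and HOXD8 were not analysed here.

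Endometrial biopsies were taken on Day 15 of a synchronised estrous cycle and hybridised one cow to one array. The young females (YF, n = 4, 4 to 5 years) were primiparous and the old females (OF, n = 4, 13 to 14 years) nulliparous, so that age and parity cannot be told apart. Both groups were Holstein clones of 1 donor cow and shared a nuclear genome. The contemporary cows (CP, n = 3) have no age, parity or clone status in the labels. A further CP cow, 1111, is marked in the labels as left out for a divergent phenotype and entered no comparison unless named. According to the paper, the cycles of YF and OF were synchronised. Their array biopsies were intercaruncular tissue from the horn on the side of the corpus luteum. The paper does not describe the CP biopsies. The cow was the replicate.

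Levels are given as log2 signal minus the 75th percentile of the array, so a level of 0 is the 75th percentile itself, and levels of different genes are not compared because each probe has its own response. The 75th percentile ran from 968 to 1597 intensity units, 71.6% to 74.9% of probes were well above background, and no HOX or other probe was saturated on any of the 12 arrays. The lowest level at which a probe was still well above background was between -6.85 and -6.17. Arrays came from 2 slides, with 2 YF, 1 OF and CP 1111 on one and the other 8 cows on the other. The tissue carried its markers: EPCAM and KRT8, made by epithelium, were well above background in all 11 cows, as was the smooth muscle myosin MYH11.

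The homeobox, which codes for the DNA-binding domain, is the part in which HOX genes are most alike. The probes below all lie on the stretch for the third helix of that domain, and they are shown because they cover high-numbered genes with very different detection. Sequences are those of the array files, 5′ to 3′. Capitals mark the word TTNCANAAN, and the coordinates are the spans of the genes' transcripts on UMD3.1 as the array files give them.
HOXB9 probe 1, chr19:38503102-38507053: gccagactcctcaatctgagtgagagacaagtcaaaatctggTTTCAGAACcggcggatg
HOXC11 probe 1, chr5:26215737-26218209: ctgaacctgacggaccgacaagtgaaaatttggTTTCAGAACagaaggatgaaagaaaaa
HOXC12 probe 2, chr5:26234886-26236477: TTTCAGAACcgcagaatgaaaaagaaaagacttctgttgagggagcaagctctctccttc
HOXD12 probe 2, chr2:20848044-20849010: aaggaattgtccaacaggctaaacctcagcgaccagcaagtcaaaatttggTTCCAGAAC
HOXA13 probe 2, chr4:69297275-69298937: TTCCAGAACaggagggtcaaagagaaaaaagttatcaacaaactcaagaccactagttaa
HOXB13 probe 2, chr19:38428299-38430120: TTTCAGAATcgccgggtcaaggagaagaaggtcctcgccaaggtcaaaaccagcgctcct
HOXD13 probe 2, chr2:20854099-20856159: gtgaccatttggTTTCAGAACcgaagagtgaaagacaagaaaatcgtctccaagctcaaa
The HOXB9 probe was well above background on 11 of the 11 arrays and the HOXC11 probe on 10. These probes were identical at 40 of the 51 bases over which they align. The HOXA13 probe was detected on 2 arrays, and the probes of HOXC12, HOXD12, HOXB13 and HOXD13 printed here on 0. Over their 42 aligned bases, HOXC11 and HOXD12 shared 34, with one detected on 10 arrays and the other on 0. Searched on both strands, the word was in 13 of 73 different HOX probe sequences, or 17.8%, and in 6.3% of the 50922 different probe sequences of the array.

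Genes of lower number were covered by probes on the same domain. The next pair lies earlier in the homeobox and belongs to genes near or below the detection limit, and capitals mark the bases shared by the pair.
HOXC8 probe 1, chr5:26180271-26182515: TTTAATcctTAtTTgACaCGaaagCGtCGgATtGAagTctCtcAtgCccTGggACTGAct
HOXD1 probe 2, chr2:20759890-20761196: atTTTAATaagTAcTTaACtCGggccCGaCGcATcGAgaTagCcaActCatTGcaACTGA
The HOXC8 and HOXD1 probes shared 33 of 58 aligned bases and were each detected on 1 array. The longest run of identical bases between probes of different HOX genes was 15 of the 60 bases, over 2656 pairs of probes, and it was shared by the HOXC11 and HOXD13 probes printed above. How far such probes bind each other's transcripts was not tested.

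**Figure D1:**
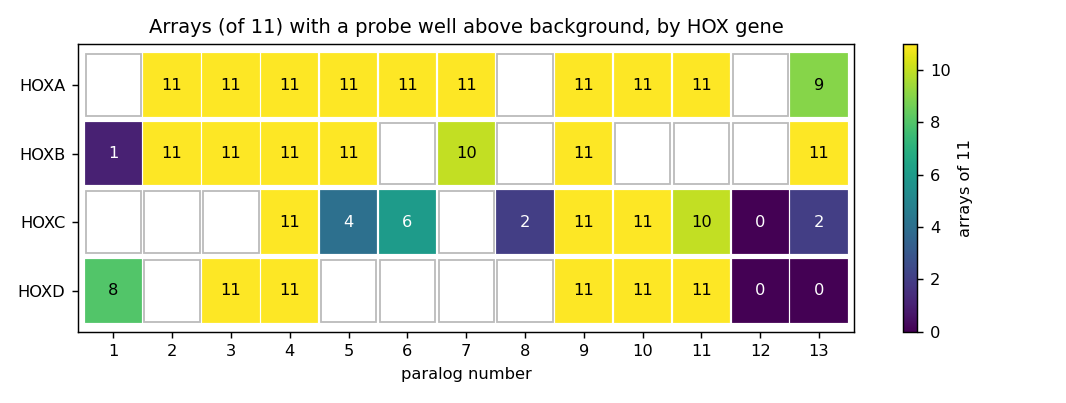
Number of arrays, of the 11 used, with a probe of the gene well above background, by HOX cluster (rows) and paralog number (columns). Empty outlines are positions with no gene analysed here, and the low counts lie at ends of the clusters and in the middle of HOXC.

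Most of the HOX genes measured were detected. With a gene taken as detected if the same probe stood well above background in all cows of at least 1 group, 27 of 35 HOX genes were detected, or 77.1%, against 76.3% of all transcripts. HOXA had 10 of 10 genes detected, HOXB 7 of 8, HOXD 6 of 8 and HOXC 4 of 9. By paralog number, 10 of 11 genes numbered 1 to 4 were detected, 5 of 8 numbered 5 to 8 and 12 of 16 numbered 9 to 13. A single cow had between 26 and 30 HOX genes detected.

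Detection stopped at different places in each cluster. In HOXA it ran without a break from HOXA2 to HOXA13. In HOXB it ran from HOXB2 to HOXB13 over the genes measured, with HOXB1 on 1 array, and in HOXD from HOXD1 to HOXD11, with HOXD12 and HOXD13 on 0. In HOXC the detected genes were HOXC4 and then HOXC9 to HOXC11. The genes between them were seen in some cows, HOXC5 on 4 arrays, HOXC6 on 6 and HOXC8 on 2, while HOXC13 was on 2 and HOXC12 on 0. The 3 genes detected in no cow, HOXC12, HOXD12 and HOXD13, had levels at or below -7.58, under the lowest level at which any probe was well above background, so the arrays give only an upper bound for them. The count falls to 23 of 35 if detection on all 11 arrays is asked for, and to 19 of 35 if every probe of the gene has to be detected.

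Before the groups are compared, 2 cows have to be named, OF 2258 and YF 1069, because many HOX values rest on them. They were picked out after the values were seen. Epithelium content was scored as the mean deviation of 8 epithelial marker genes from their mean over the 11 cows. The score was -1.80 in OF 2258 and -1.09 in YF 1069, and between -0.17 and 0.96 in the other 9 cows. EPCAM was at 1.10 in OF 2258 and 2.50 in YF 1069, against 3.50 to 4.51 in the others, and 7 of the 8 markers had their lowest levels in these cows. Both arrays were on the same slide. In a biopsy, fewer cells of a type and less RNA per cell cannot be told apart. Smooth muscle markers varied too: their score was 4.15 in OF 2258 and 2.49 in OF 0234, and between -1.46 and 0.09 in the remaining 9 cows.

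HOXA9, HOXA10, HOXA11 and HOXA13 are the genes named above for the female tract. HOXA10, the regulator of endometrial receptivity, was at 4.86, 3.41, 3.27 and 3.28 in YF 1069, 1070, 1072 and 1127. In OF 0233, 0234, 0245 and 2258 it was at 2.78, 4.18, 2.84 and 4.35. In CP 1068, 1128 and 1129 it was at 3.84, 3.41 and 3.16. YF 1069, OF 2258 and OF 0234 were the highest cows, and the groups overlapped. The difference OF minus YF was -0.17 (SE 0.50) and limma's adjusted p was 0.999.

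HOXA9, which neighbours HOXA10, was at 2.49, 1.59, 1.30 and 1.14 in the YF, in the same order of cows. It was at 0.99, 2.10, 0.74 and 2.14 in the OF and at 1.11, 1.63 and 1.27 in the CP. The same 3 cows were the highest, and OF differed from YF by -0.14 (SE 0.42, limma adjusted p = 0.999). HOXA11, which acts with HOXA10 in the stroma, was at 0.65, -0.42, -0.80 and -1.30 in the YF. It was at -1.40, -0.08, -1.52 and 0.19 in the OF and at -0.34, -0.54 and -0.66 in the CP. Again the groups overlapped, with a difference OF minus YF of -0.24 (SE 0.52, limma adjusted p = 0.999). The SD of each of these genes was larger in OF and YF than in the 3 CP used, with an SD for HOXA11 of 0.88 in OF, 0.83 in YF and 0.16 in CP. This contrast depends on the cows kept. CP 1111, which was left out, lay below the other CP, at 0.89 for HOXA9, 2.47 for HOXA10 and -1.37 for HOXA11.

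HOXA13, the most posterior gene of the cluster, was close to the detection limit. It was at -5.24, -6.42, -6.63 and -7.28 in the YF, at -6.28, -7.04, -6.50 and -5.83 in the OF and at -5.40, -7.51 and -5.75 in the CP. It was well above background on 9 of 11 arrays, with 1 probe of the gene detected more often than the other. The OF and YF means differed by -0.02, and the gene was not tested between these groups because 1 array of each fell below background.

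**Figure D2:**
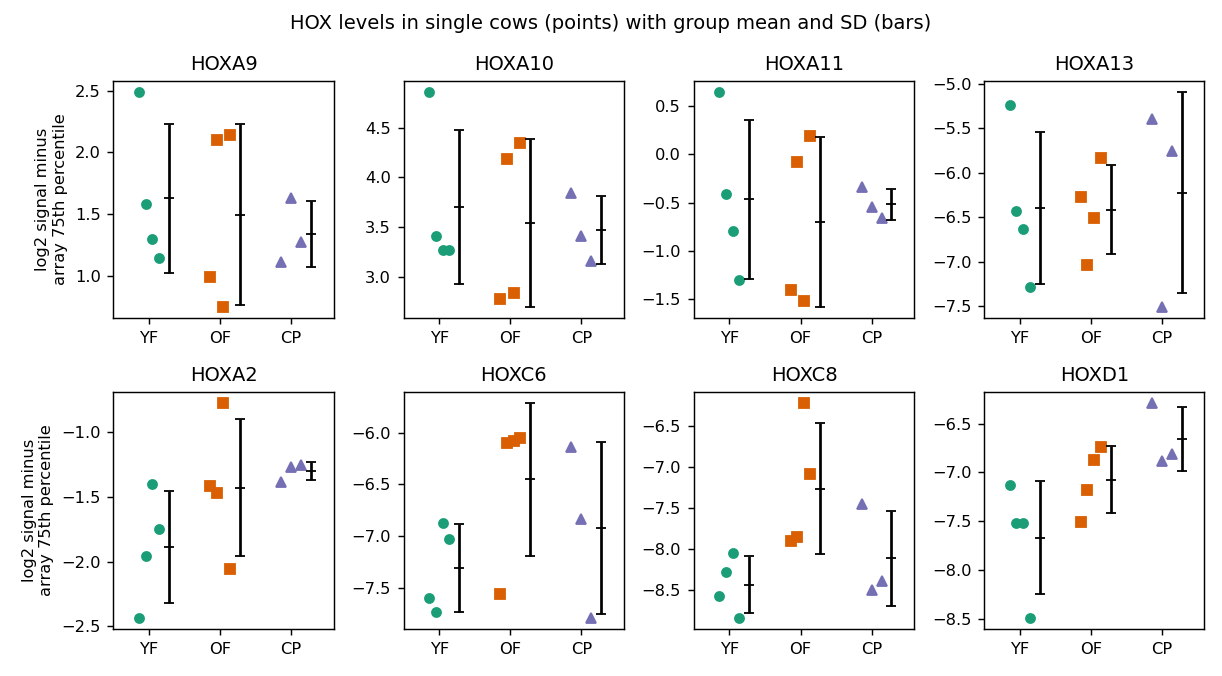
Level of 8 HOX genes in single cows (points, log2 signal minus the 75th percentile of the array) with the group mean and SD (bars) for YF (n = 4), OF (n = 4) and CP (n = 3). HOXC8 is the 1 gene shown in which all OF lie above all YF, and it was well above background in no YF or CP.

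The comparison of OF with YF asks what differs in the endometrium with age. Of the 35 HOX genes, 25 passed the detection filter and entered limma with 19755 transcripts in all. None of the 25 was called at an adjusted p of 0.05, against a background of 0% of transcripts, and none reached an unadjusted p of 0.05, which 2.42% of transcripts did. OF were higher in 12 genes and lower in 13, and 51.7% of all transcripts were higher in OF. The median difference over the 25 genes was -0.00, with a range from -0.24 for HOXA11 to 0.58 for HOXC9, against a median of 0.01 over all transcripts. HOXC9 was highest in OF 2258, and without this cow its difference was 0.05. The median size of the difference was 0.14 for the HOX genes and 0.15 for all transcripts. No tested HOX gene had groups that did not overlap, which 1.53% of transcripts had.

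The precision differed among the genes. For HOXD3, whose levels lay within 0.37 of each other in all 11 cows, the 95% interval of the difference OF minus YF ran from -0.23 to 0.34. For HOXA10 it ran from -1.13 to 0.97, for HOXB2 from -1.90 to 1.44 and for HOXC11 from -1.82 to 1.82. Changes within these intervals could therefore not be excluded with 4 cows a group. Probes of the same gene gave differences of the same sign in 16 of the 25 genes and of opposite signs in 9, among them HOXB7 and HOXC11.

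FCROS, the rank method the study used for its arrays, takes all transcripts without a filter on dim probes. It called 2 HOX genes higher in OF and 0 lower, against 4.94% of all transcripts called in either direction and 2.88% called higher. These were HOXC6 and HOXC8, neighbours in the middle of HOXC that pattern the thoracic region in the embryo. Neither had a probe well above background in all cows of a group, so neither was tested with limma.

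HOXC8 was at -8.58, -8.29, -8.05 and -8.85 in the YF, at -7.91, -7.85, -6.21 and -7.08 in the OF and at -7.45, -8.51 and -8.39 in the CP. It was well above background in 2 OF and in no YF or CP. All OF lay above all YF, with a difference of 1.18 on the log2 scale. The exact two-sided permutation p was 0.0286, the smallest that 4 against 4 allows. HOXC8 alone of the 35 HOX genes had a p this small. The p is not adjusted for the number of genes. With 4 against 4 it is reached where the groups do not overlap, as for 1.53% of the 19755 transcripts that passed the filter. HOXC8 did not pass it, and the share over all transcripts was not computed, so this 1 gene is not read as a result about HOX genes. The FCROS fold was 2.50 in OF over YF. This fold compares signals that were mostly not well above background, and against the detection limit of the YF arrays no fold above 1 remained. With another background correction (normexp) the difference was 0.34 for HOXC8 and 0.26 for HOXC6, and FCROS called neither gene. Without the filter on dim probes, limma gave HOXC8 an adjusted p of 0.993.

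HOXC6 was at -7.60, -7.74, -6.87 and -7.03 in the YF, at -7.56, -6.10, -6.08 and -6.06 in the OF and at -6.14, -6.83 and -7.80 in the CP. It was detected in 3 OF, 1 YF and 2 CP. OF 0233 lay among the YF, above the lowest of them, the difference was 0.86 and the exact permutation p was 0.0857. HOXC5, next to HOXC6, was detected in 2 OF, 1 YF and 1 CP. Its levels were -8.01, -7.18, -8.17 and -7.40 in the YF, -6.45, -7.27, -6.94 and -7.86 in the OF and -7.97, -6.38 and -8.61 in the CP, and OF and YF overlapped.

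Within slides, HOXC8 was higher in OF by 1.96 (1 OF, 2 YF) and by 1.10 (3 OF, 2 YF), and HOXC6 by 1.22 and 0.74. The median over the 25 HOX genes was 0.10 on the first slide and -0.01 on the second. Without OF 2258 and YF 1069 together, FCROS called 4 HOX genes: HOXC6, HOXC8 and HOXD1 higher in OF and HOXC11 lower. Without OF 2258 alone it called 5 and without OF 0245 it called HOXC8 alone. The share of all transcripts called in these reduced sets was not computed, so the counts cannot be set against a background.

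A few more genes were detected in some cows only. HOXB7 was at -6.53, -5.09, -5.53 and -5.29 in the YF, at -5.03, -5.79, -4.31 and -7.38 in the OF and at -5.55, -5.02 and -5.99 in the CP, and fell below background in OF 2258. HOXC11, a hindlimb and tail gene of the embryo, was at -5.20, -5.33, -5.94 and -4.73 in the YF, at -5.88, -6.06, -6.63 and -2.66 in the OF and at -4.67, -5.32 and -6.32 in the CP. OF 2258 stood above all other cows for HOXC11, and OF 0245 was the cow in which it was not detected. The signs of both differences turned with the scaling or the cows used: the difference OF minus YF was -0.02 for HOXB7 and -0.00 for HOXC11, and 0.26 for each with the slide as a block and with normexp, respectively. HOXB1 was detected in 1 OF, and its levels ran from -8.81 to -7.49 over the 11 cows. HOXC13 was detected in OF 0245 at -6.76 and in CP 1128 at -7.07, and lay between -8.88 and -8.07 in the other 9 cows.

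The labels state no purpose for the CP group. CP and YF were compared over 27 HOX genes of 19993 transcripts, and none was called at an adjusted p of 0.05 (0% of all transcripts). At an unadjusted p of 0.05, 2 HOX genes were higher in CP and 0 lower, against 3.03% of transcripts in either direction and 1.29% higher. They were HOXA2, which patterns the hindbrain, and HOXD1, both from the anterior end of their clusters. HOXD1 passed the filter through CP alone, with no probe detected in all YF, so that its place in this count carries no weight. All CP lay above all YF for both genes, and groups did not overlap for 3.83% of transcripts, with CP higher for 1.51%. The median difference over the 27 genes was 0.08, with a range from -0.29 to 1.01.

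HOXD1 was at -7.13, -7.52, -7.52 and -8.49 in the YF, at -7.51, -7.18, -6.87 and -6.74 in the OF and at -6.29, -6.88 and -6.81 in the CP. It was detected in 3 CP, 4 OF and 1 YF, with YF 1127 the lowest cow. The means were -7.66 in YF and -6.66 in CP, a difference of 1.01 (SE 0.33) with an adjusted p of 0.9999 by limma. Both means lay below the mean detection limit of the arrays, -6.56 in YF and -6.62 in CP. FCROS called HOXD1 higher in CP with a fold of 1.93, the 1 HOX gene it called here, against 4.23% of transcripts in either direction and 1.94% higher. Against the detection limit of the YF arrays no fold above 1 remained. With normexp the difference CP minus YF was 0.15, and with the brightest probe 1.70. OF exceeded YF by 0.59 with an exact permutation p of 0.143 and without a call.

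HOXA2 was at -2.44, -1.96, -1.40 and -1.75 in the YF, at -1.41, -1.47, -0.77 and -2.06 in the OF and at -1.38, -1.27 and -1.25 in the CP. The lowest CP lay just above the highest YF. The difference CP minus YF was 0.59 (SE 0.25), at p = 0.0453 unadjusted and p = 0.9999 adjusted by limma, and the exact permutation test gave p = 0.0571. All 3 CP shared 1 slide with 2 of the YF, and within that slide the differences were 0.79 for HOXA2 and 1.15 for HOXD1. YF are in both this comparison and that with OF, so the differences against YF are not independent.

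CP and OF were compared over 27 HOX genes of 19914 transcripts. None was called at an adjusted p of 0.05 (0% of all transcripts), none reached an unadjusted p of 0.05 (4.57%), and FCROS called 0 (5.4%). The median difference CP minus OF was 0.09, from -0.51 for HOXC9 to 0.42 for HOXD1. Without OF 2258 the difference for HOXC9 was 0.01, and HOXD1 had means below the detection limit in both groups. The 95% interval for HOXA10 ran from -1.13 to 0.99.

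HOX levels also varied between cows of the same group. HOXB3, one of the anterior genes of HOXB, was at -2.27 in YF 1069 and between -1.03 and -0.90 in the other YF. It was at -2.73 in OF 2258 and between -1.36 and -0.69 in the other OF. HOXB2 was at -1.61 in YF 1069 and -2.64 in OF 2258, and between -0.40 and 0.54 in the other 9 cows. These cows, 1 of each group, were thus the lowest for both genes.

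In 6 of the 7 detected HOXB genes, HOXB2, HOXB3, HOXB4, HOXB5, HOXB7 and HOXB9, OF 2258 and YF 1069 were the lowest of the 11 cows. The exception was HOXB13, which lies apart from the rest of the cluster. HOXA2 was the 1 gene outside HOXB with the same order, which makes 7 of 27 detected HOX genes, against 9.22% of 20082 detected transcripts. In HOXA5, HOXA6, HOXA9, HOXA10, HOXA11 and HOXC10 the same cows were the highest, 6 of 27, against 9.87% of transcripts. No HOXD gene had either order. Both cows were picked after the HOX values were seen, and the HOXB genes vary together. The shares of all transcripts are therefore given for scale only, and the counts are not a test of the HOX genes. HOXC9 and HOXC11 were highest in OF 2258, with CP 1068 next for both.

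**Figure D3:**
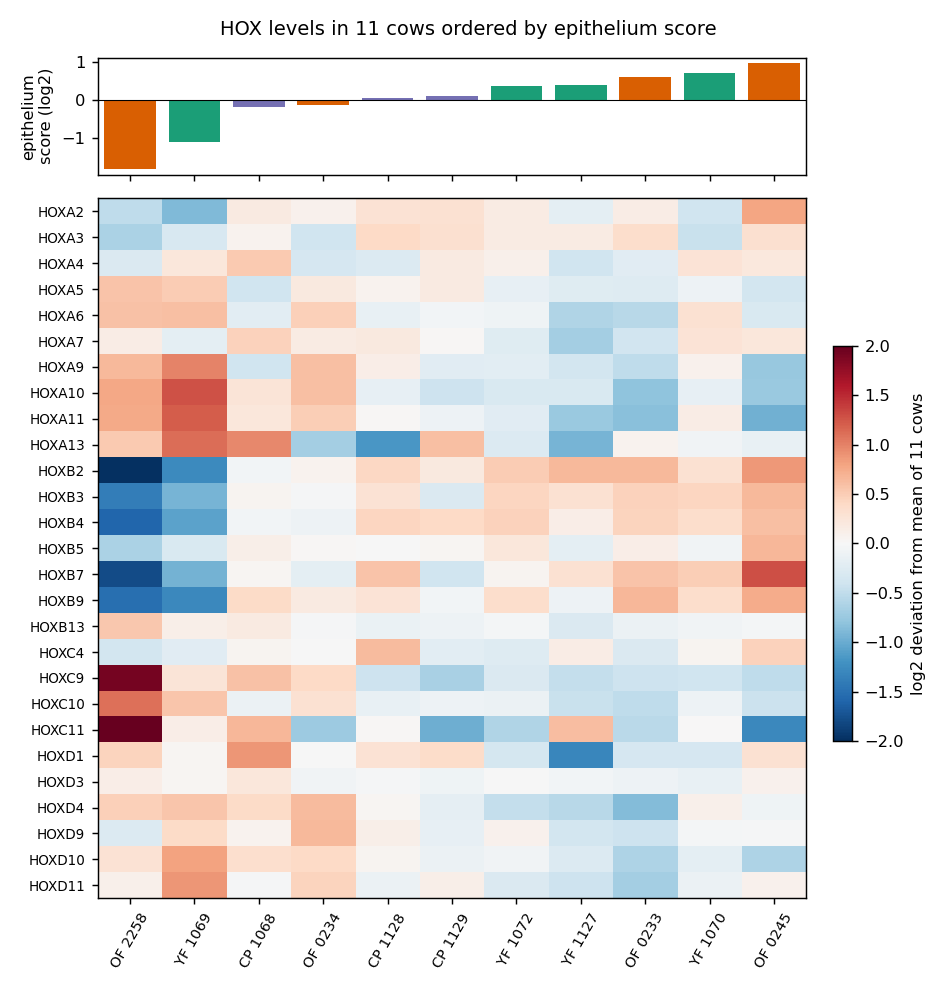
Deviation of each of the 27 detected HOX genes from its mean over 11 cows (log2, red higher, blue lower, colours end at 2 in either direction), with cows ordered by epithelium score (bars on top, orange OF, green YF, purple CP). OF 2258 and YF 1069 on the left are low for HOXB2 to HOXB9 and high for HOXA9 to HOXA11.

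The levels were then set against the epithelium score over the 8 OF and YF cows, with group means removed, a relation examined after the values were seen. Of 25 HOX genes, 15 had an unadjusted permutation p of 0.05 or less for Pearson's r, 7 with positive and 8 with negative r, against 31.2% of 19755 transcripts. None passed adjustment over all transcripts, where the smallest adjusted p was 0.0922. The median size of r was 0.85 for HOX genes and 0.60 for all transcripts.

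HOXB7 had r = 0.98 (exact permutation p = 0.00174, the smallest possible; adjusted p = 0.0922) and a Spearman rho of 1 (p = 0.00174; adjusted p = 0.157). HOXB3 had r = 0.99 (exact permutation p = 0.00694, adjusted p = 0.0981) and rho = 0.93 (p = 0.0174, adjusted p = 0.168). Without OF 2258 and YF 1069, the cows farthest from the median score, r was 0.97 for HOXB7 and 0.95 for HOXB3. These values of r kept the group means of all 8 cows. Among the remaining OF, both genes rose in the order of the score. Among the remaining YF, HOXB7 did so and HOXB3 did not. HOXB3 was at -0.91, -0.90 and -1.03 in YF 1070, 1072 and 1127, at scores of 0.71, 0.36 and 0.38. For HOXB4, HOXB9, HOXB2 and HOXB5 r was 0.99, 0.98, 0.97 and 0.86 with all 8 cows and 0.88, 0.81, 0.76 and 0.65 without the pair. Among all transcripts, 2.83% had an r of 0.95 or more, a cut-off that HOXB5 did not reach.

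Negative r was found for genes of all 4 clusters. HOXC9 had r = -0.95 (exact permutation p = 0.00521, adjusted p = 0.0981) and rho = -0.98 (p = 0.00694, adjusted p = 0.157), and r = -0.89 without the pair. HOXA10 had r = -0.89 (exact permutation p = 0.0208, adjusted p = 0.103) and rho = -0.86 (p = 0.0451, adjusted p = 0.217), and r = -0.78 without the pair. HOXA5, HOXC10, HOXA9, HOXA11 and HOXD10 had r between -0.96 and -0.84, and between -0.82 and -0.63 without the pair. An r of -0.80 or less was found for 13.2% of transcripts. This cut-off is looser than the one for positive r, and neither was set in advance, so the shares are not to be compared. HOXB13 had r = -0.87, and -0.12 without the pair. With quantile normalization these values were -0.92 and -0.70, and with CP added -0.83 and -0.43. Signals of HOXB13 and HOXC10 were near background, with 1 probe of each detected on 11 arrays and the other on 0. All probes of HOXC9 were detected together on 5 of the 11 arrays. The part of epithelium content in these HOX levels was not tested.

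**Figure D4:**
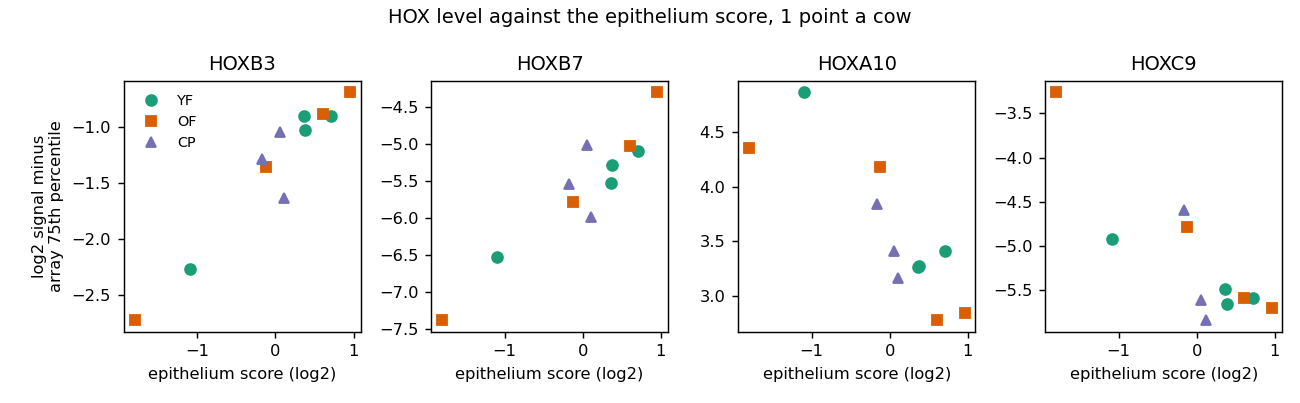
Level of HOXB3, HOXB7, HOXA10 and HOXC9 (log2 signal minus the 75th percentile of the array) against the epithelium score, 1 point a cow (circles YF, squares OF, triangles CP). HOXB3 and HOXB7 rise with the score and HOXA10 and HOXC9 fall, with OF 2258 and YF 1069 at the left.

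Described over pairs of genes and all 11 cows, with group means removed, the 15 pairs among HOXB2 to HOXB9 had a median r of 0.93, and 15 of them were above 0. The 3 pairs among HOXA9 to HOXA11 had a median r of 0.95. Between these sets all 18 pairs were negative, with a median r of -0.78. Leaving out OF 2258 and YF 1069, the medians were 0.74, 0.89 and -0.57, with the group means still those of all 11 cows. HOXA9 to HOXA11 and HOXD4 to HOXD11 had a median r of 0.79 over 12 pairs, and 0.80 without the pair of cows. All these genes were read on the same arrays, so the pairs are not independent.

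With the smooth muscle score, 4 of 25 HOX genes (HOXB2, HOXB13, HOXC9 and HOXC10) had an unadjusted permutation p of 0.05 or less, against 13.5% of transcripts, and none passed adjustment over all transcripts (smallest adjusted p = 0.354). The 11 smooth muscle markers were all higher in OF than in YF on average, 10 were called by FCROS and none by limma. Stromal markers were lower in OF in 8 of 8 genes, and epithelial markers in 6 of 8, with 0 called by limma or FCROS. These averages rest on single cows. The smooth muscle score was 4.15 in OF 2258 and 2.49 in OF 0234, but -1.04 in OF 0233 and -0.29 in OF 0245, within the YF range of -1.46 to 0.09. The epithelium score was -1.80 in OF 2258, and -0.13, 0.60 and 0.96 in OF 0234, 0233 and 0245, against -1.09 to 0.71 in YF. The part of these tissue differences in the OF and YF values above was not tested.

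HOX proteins bind DNA together with PBX and MEIS cofactors of the TALE class. All 8 cofactor genes listed were tested, and none was called by limma in any comparison. Between OF and YF, MEIS1 differed by 0.30 (SE 0.40) and MEIS2 by 0.78 (SE 0.90), and FCROS called 0 of the 8. Both genes were highest in OF 2258, at 3.81 for MEIS1 and 2.95 for MEIS2, and without this cow the differences were -0.09 and -0.01. PBX4 was higher in CP than in OF by 1.14 (SE 0.48, limma unadjusted p = 0.0473, adjusted p = 0.912), and FCROS called it higher in CP against both other groups. Without OF 2258 the difference from OF was 0.75, and without YF 1069, CP 1128 or CP 1129 the call against YF was lost. Its lowest levels were -6.54 in OF 2258 and -5.91 in YF 1069, against -5.47 to -3.84 in the other 9 cows.

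Polycomb proteins keep HOX genes silent and Trithorax proteins keep them active. Of 14 Polycomb genes, none was called by limma. CBX2, a chromodomain subunit, was lower in CP than in YF by 0.83 on the log2 scale (mean of -6.28 in CP and -5.44 in YF), with an unadjusted p of 0.0181 and an FCROS call that was lost without CP 1068. EZH2, the methyltransferase, had a difference OF minus YF of -0.46 (SE 0.27), and of -0.25 without OF 2258. Of 10 Trithorax genes, 0 reached an unadjusted p of 0.05 in any comparison or an FCROS call, and KMT2A differed between OF and YF by -0.10 (SE 0.19). CTCF, which binds within the clusters and divides their chromatin, differed by -0.09 between OF and YF, with no call.

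Retinoic acid and the CDX factors switch HOX genes on in the embryo. Of the 13 genes listed, 8 were tested between OF and YF and 9 against CP, and limma called none. CYP26A1, which breaks down retinoic acid, had a mean of 0.35 in YF, -1.84 in OF and -3.25 in CP. CP minus YF was -3.60 (SE 1.22, limma unadjusted p = 0.0187, adjusted p = 0.9999) and OF minus YF -2.19 (SE 1.54, unadjusted p = 0.191), and FCROS called both lower. Without OF 2258 OF minus YF was -0.69, and its FCROS call was lost without this cow, OF 0234, YF 1070 or YF 1072. CRABP2, which carries retinoic acid to its receptor, was higher in CP than in OF by 1.05 (SE 0.44, unadjusted p = 0.0450), with an FCROS call that was lost without OF 0233 or CP 1128. RARA, a retinoic acid receptor, had a difference CP minus YF of 0.42 (SE 0.17, unadjusted p = 0.0423) and no FCROS call. CDX2 was called lower in OF than in YF by FCROS, at means of -8.07 and -7.12 that are below the detection limit, and the call was lost without OF 0233 or YF 1127.

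HOXA10 is known to repress EMX2 and to act on IGFBP1 in the endometrium. EMX2 had a difference OF minus YF of 0.06 (SE 0.20) and no call. IGFBP1, an insulin-like growth factor binding protein, had a mean of -0.40 in YF, -2.88 in OF and -2.69 in CP. OF minus YF was -2.48 (SE 1.40, limma unadjusted p = 0.113) and CP minus YF -2.29 (SE 0.91, unadjusted p = 0.0369), both with an FCROS call and neither with an adjusted one. OF 2258 had the lowest IGFBP1 level, -7.27, and without this cow OF minus YF was -1.02. Without CP 1068 CP minus YF was -1.40. The FCROS calls of IGFBP1 were kept with each cow left out in turn. Of the genes that flank the clusters, 8 were tested, and 0 reached an unadjusted p of 0.05 or an FCROS call in any of the 3 comparisons.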

How the data were processed

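Total RNA of 12 endometrial biopsies was labelled with Cy3 and hybridised to custom 60-base bovine arrays (UMD3.1). The deposited scanner files hold intensity values, which the authors extracted with Agilent Feature Extraction 10.7.3.1. The processed intensity was taken as log2 of the deposited signal minus the 75th percentile of the array. Control spots were dropped, as were 47 probes flagged as non-uniform and 19 flagged as population outliers. Spots of a probe and then probes of a transcript were averaged, over 61333 probes from 61549 non-control spots. A transcript was tested if the same probe was well above background in all cows of 1 group. Tests used limma 3.58.1 (R 4.3.3; two-sided, Benjamini-Hochberg adjustment over all transcripts tested, threshold 0.05), fitted to the cows of the groups compared. FCROS was coded from its description, with a trimmed share of 0.25, f-values beyond 0.025 or 0.975 and a fold of 1.5. Both were tested on simulated data. Single genes were given exact permutation tests, in which 4 against 4 and 3 against 4 cows cannot go below p = 0.0286. The number of arrays limits the precision.

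Marker scores are means over listed genes of the deviation from the mean over the cows. Correlations with them used the 8 OF and YF cows, group means removed, and all permutations within groups, and were adjusted over all 19755 transcripts instead of over the HOX genes. Where cows were left out of a correlation, the group means removed were those with these cows included. The members and gene lists were chosen with earlier results of these data known. A few items taken by these rules are not reported here. Values in every cow are given for HOXA9, HOXA10, HOXA11 and HOXA13, for HOX genes called by limma or FCROS or with an unadjusted limma p of 0.05 or less, and for those detected in some cows only. From the other lists, genes with a call or such a p are named, and MEIS1, MEIS2, EMX2, EZH2 and KMT2A as examples. Alternatives were quantile normalization, normexp, median centring, the brightest probe, no filter on dim probes, a block for the slide, a fit of all groups together, CP 1111 added and each cow left out. The epithelium score, the removal of OF 2258 and YF 1069 together, and some scalings of single genes were added after the values were seen.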

Additional observations from a re-analysis of the deposited data

Results flagged for a closer look

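In each group of 4 cows, the highest and lowest HOX value was compared with the rest. A cow far from the others was found in 6 of 70 tests, at a nominal rate of about 1 in 20. The share over all transcripts was not computed. The tests reuse the same cows on genes that vary together, so the count is not a result about HOX genes. OF 0233 had the lowest HOXA7 of the OF at -1.42, with the other OF between -0.88 and -0.81. OF 2258 had the highest HOXB13 at -6.35, with the next OF at -6.91. OF 0233 had the lowest HOXC6 at -7.56, against -6.10 to -6.06 in the other OF, and without this cow the difference OF minus YF of HOXC6 was 1.23 in place of 0.86. OF 0245 had the highest HOXC13 at -6.76, with the next at -8.39, below the detection limit. YF 1069 had the highest HOXA10 at 4.86, with the next YF at 3.41, and the lowest HOXB3 at -2.27, with the next at -1.03.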

How the results depend on the processing

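No HOX gene was called by limma in any comparison under any alternative, and the number with an unadjusted p of 0.05 or less ran from 0 to 2 for OF against YF, 0 to 4 for CP against YF and 0 for CP against OF. The median HOX difference stayed between -0.02 and 0.10 for OF minus YF, -0.02 and 0.14 for CP minus YF and -0.06 and 0.17 for CP minus OF. No scaling moved the median of all transcripts by more than 0.1. The 2 FCROS calls depended on the processing: 0 with normexp, 0 with the filter on dim probes, between 1 (without OF 0245) and 5 (without OF 2258) with 1 cow left out, and 4 with OF 2258 and YF 1069 left out. HOXC8 was among them in every setting other than normexp and the filter. The share of all transcripts called by FCROS under these settings was not computed. The sign turned for HOXB7, to 0.18 with normexp, 0.10 with the brightest probe, 0.26 with the slide as a block and 0.26 without OF 2258 and YF 1069, and for HOXC11, to 0.26 with normexp, 0.010 with median centring and 0.45 with the brightest probe. With 1 cow left out, OF minus YF ran from -0.35 to 0.15 for HOXA9, -0.44 to 0.22 for HOXA10, -0.53 to 0.14 for HOXA11, -0.45 to 0.57 for HOXB7 and -0.89 to 0.44 for HOXC11, the lowest without OF 2258 and the highest without YF 1069 for HOXA9 to HOXA11. Leaving out 1 cow, chosen as an alternative after the data were seen for the genes that follow, OF minus YF ran from -0.094 to 0.55 for MEIS1, -0.0078 to 1.31 for MEIS2, -0.057 to 0.21 for EMX2 and -0.22 to 0.020 for CTCF, and CP minus OF from -0.89 to 0.012 for HOXC9. The cause was not tested. The 15 HOX genes with an unadjusted p for the epithelium score stayed 15 in number with CP added and with quantile normalization. No paired analysis was possible because the groups share no replicate numbers. Signals near background limit HOXA13, HOXB1, HOXB7, HOXB13, HOXC5, HOXC6, HOXC8, HOXC10, HOXC11, HOXC13 and HOXD1. They limit HOXB9 and HOXC9 in part, since all probes of these genes were detected together on 6 and 5 of the 11 arrays. The number of cows limits all genes.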
